A study of Rattus norvegicus with 3 samples.

Results

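The genes that encode the proteasome and its regulators were examined in ventricular myocytes of newborn rats. The members were the genes whose array symbol began with Psma, Psmb, Psmc, Psmd, Psme, Psmf or Psmg followed by a digit, on probe sets that carried 1 symbol, with Psme3ip1 left out. There were 42 such genes on 45 probe sets, among 10411 genes on the arrays. They comprised 7 α ring and 6 β ring subunits of the core, 3 immunoproteasome subunits, 5 ATPases and 9 other subunits of the regulatory particle, 7 assembly chaperones, 4 activators and inhibitors, and Psmc3ip. The last is a meiotic recombination factor that shares only the symbol pattern, and the medians below hold it in. A further 6 probe sets carried a proteasome symbol beside other symbols and were left out, so that the catalytic subunit gene Psmb6 and the activator gene Psme3 were not analysed here.

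The 3 arrays, 1 per culture condition, held total RNA of neonatal rat ventricular myocytes. One culture was unstimulated, one received 20 µM phenylephrine, an α1-adrenergic agonist that makes cardiac myocytes enlarge, and one received 1 µM PAMH, a compound that the labels name only by this abbreviation. All cultures lasted 48 h. The labels do not say how many animals or wells stood behind a culture, and with 1 array per condition no ratio below has a replicate check, a standard error or a p-value.

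The proteasome is the barrel-shaped protease that degrades ubiquitin-tagged proteins. Its core stacks α rings, which gate the entrance, on β rings, which hold the catalytic sites, and a regulatory particle binds ubiquitin chains, unfolds the substrate with a ring of ATPases and threads it into the core. Interferon exchanges the catalytic subunits for inducible ones and adds an alternative activator ring of Psme1 and Psme2, while in heart muscle the proteasome removes sarcomeric and signalling proteins during growth and wasting.

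Most proteasome genes stood close to their unstimulated level with either compound. With phenylephrine none of the 39 measured members reached 1.5-fold in either direction (0 above and 0 below), whereas 8.90% of all 6571 measured genes were that much higher and 4.54% that much lower. With PAMH 1 of 39 members was higher and 1 lower, beside 9.31% and 4.17% of 6549 genes. These counts leave out the inducible subunit Psmb10, whose unstimulated signal lay just below the signal floor given below. Its scaled signals were 72.7 unstimulated, 139.9 with phenylephrine and 125.1 with PAMH. With a floor at percentile 25 its log2 ratios were 0.945 with phenylephrine and 0.783 with PAMH. Psme1 and Psme2, the interferon-linked activator pair, were the lowest members with phenylephrine, at 1.32-fold and 1.48-fold lower. Psmd10, an assembly chaperone known as gankyrin, was 1.53-fold lower with PAMH, and Psmd8, a lid subunit of the regulatory particle, was 1.53-fold higher.

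The intensities were scaled so that the arrays had equal medians, and ratios were restricted to genes with both signals no lower than a floor of 76.1, which was percentile 40 of all scaled values. Of the 42 members, 39 lay above the floor on every array, 2 below it on every array and 1 below it on the unstimulated array alone. The arrays were of comparable quality by the 3′ to 5′ ratio of the control probe sets, which ran from 1.44 to 1.72 for actin and from 1.01 to 1.07 for Gapdh. All 12 ventricular myocyte markers on the arrays lay above the floor on all of them. Of 12 fibroblast and matrix markers 10 did so, of 7 smooth muscle markers 7, of 5 endothelial markers 1, and of 11 macrophage and antigen-presenting cell markers 2. Passing the floor shows only that a signal reached percentile 40 of all scaled values. It is no detection call and does not measure how pure the cultures were. The summed scaled signal of the myocyte markers was 79525 unstimulated, 104444 with phenylephrine and 124731 with PAMH. That of the smooth muscle markers was 7322, 16382 and 13636, so both sums were higher in the treated cultures as scaled here. Single genes contributed to this, such as Nppa (7524, 17006 and 19611) among the former and Des (1749, 4498 and 3802) among the latter. Of the 12 myocyte markers 8 were above 0 with phenylephrine and 11 with PAMH. The sums do not measure the share of a cell type. The smooth muscle list was not uniform, with 6 of 7 markers above 0 with phenylephrine and 5 with PAMH. Smtn had log2 ratios of -0.36 with phenylephrine and -0.19 with PAMH, and Myh11 had 0.02 and -0.64. The median log2 ratio of the myocyte markers depended on the scaling: it was 0.21 with phenylephrine and 0.53 with PAMH, and -0.14 and 0.08 after quantile normalization.

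**Figure D1:**
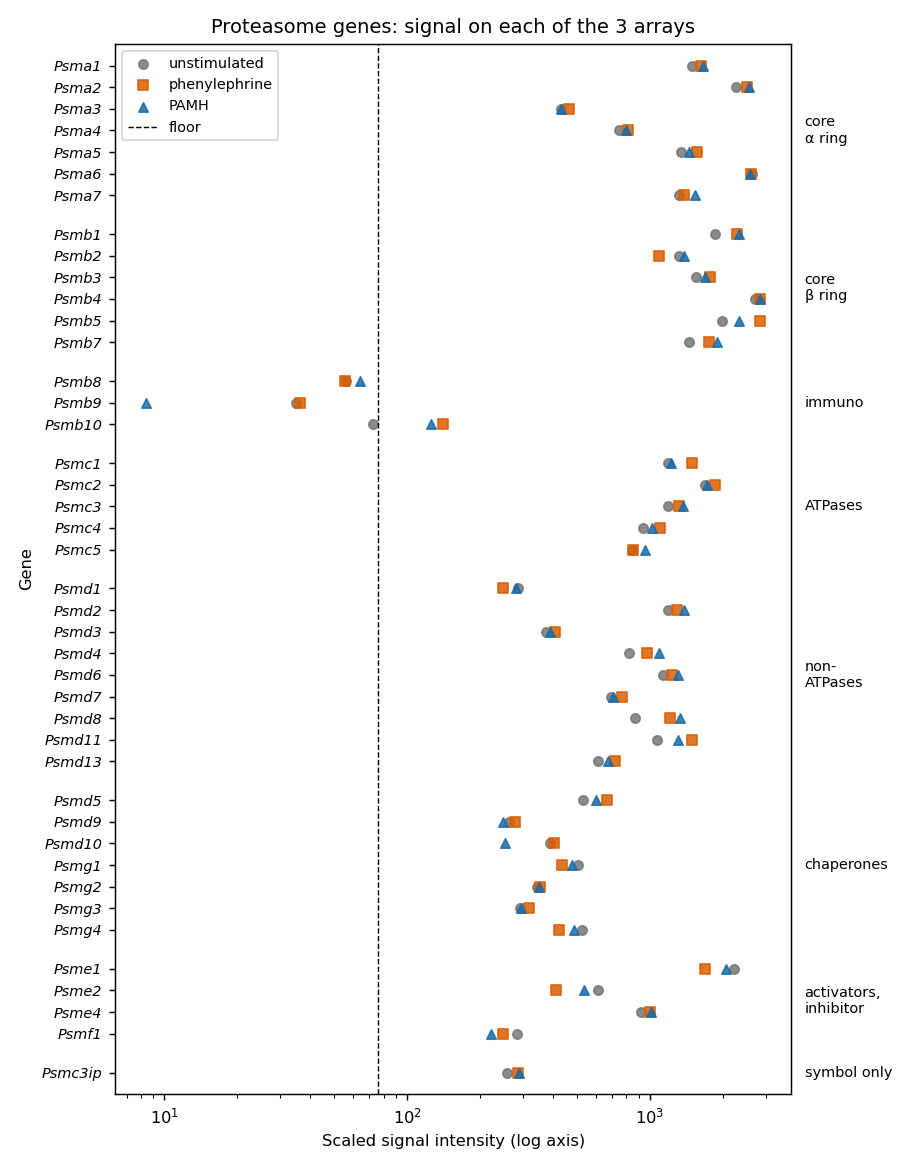
Scaled signal intensity (log axis) of each of the 42 genes on the unstimulated, phenylephrine and PAMH arrays, by functional group, with the floor of 76.1 as a dashed line. Only points of 1 gene can be compared with each other. The 3 points lie close together for most genes, and those of Psmb8 and Psmb9 lie left of the floor on all arrays.

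The sequences upstream of 6 members are shown because these genes carry differences described below or, for Psmb8 and Psmb10, are inducible subunits. They are a selection: Psmd8 and Psmd11 also carry differences described below and are not shown. No match to the motifs below was found for either. The windows are RefSeq promoters of build GRCr8, from 250 bases before to 50 after the annotated start, 5′ to 3′ on the strand of the gene. In the first 4, capitals mark GAAA, any 2 bases and GAAA again, on either strand, the core of the element that interferon-regulated factors bind. Psme2 had 1 match, at position -53, Psmb10 had matches at -73 and -17 and Psmb8 had 1 at -4, whereas Psme1 had none in this window. The last bases of the Psme1 window are the beginning of such a match on the opposite strand. The window stops before its end, so a match across the edge would be missed.
Psme1, chr15:33038721-33039020, plus strand: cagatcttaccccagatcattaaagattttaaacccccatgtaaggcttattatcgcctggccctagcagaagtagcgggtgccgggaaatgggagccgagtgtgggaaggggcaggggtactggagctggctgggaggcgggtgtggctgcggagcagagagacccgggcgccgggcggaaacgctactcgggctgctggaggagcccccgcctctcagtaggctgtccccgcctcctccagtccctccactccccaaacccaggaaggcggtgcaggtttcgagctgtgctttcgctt
Psme2, chr15:33052702-33053001, minus strand: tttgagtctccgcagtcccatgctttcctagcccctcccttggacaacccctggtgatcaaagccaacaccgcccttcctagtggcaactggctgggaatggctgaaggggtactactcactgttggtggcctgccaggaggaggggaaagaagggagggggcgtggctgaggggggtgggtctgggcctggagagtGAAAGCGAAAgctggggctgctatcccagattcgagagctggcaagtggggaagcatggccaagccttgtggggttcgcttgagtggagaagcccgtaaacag
Psmb10, chr19:50743243-50743542, minus strand: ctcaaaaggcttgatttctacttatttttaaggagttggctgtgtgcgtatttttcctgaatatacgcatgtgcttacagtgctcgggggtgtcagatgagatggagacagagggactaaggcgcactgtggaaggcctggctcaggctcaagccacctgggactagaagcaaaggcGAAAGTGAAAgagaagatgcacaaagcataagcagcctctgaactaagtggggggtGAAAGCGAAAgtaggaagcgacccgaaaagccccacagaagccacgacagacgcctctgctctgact
Psmb8, chr20:4656982-4657281, minus strand: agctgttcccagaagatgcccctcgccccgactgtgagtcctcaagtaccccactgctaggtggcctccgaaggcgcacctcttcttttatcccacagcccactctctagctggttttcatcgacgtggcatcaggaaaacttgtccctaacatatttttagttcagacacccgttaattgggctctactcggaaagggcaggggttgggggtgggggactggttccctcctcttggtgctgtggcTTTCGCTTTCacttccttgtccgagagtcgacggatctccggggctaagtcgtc
In the window of Psmb5 capitals mark TGACNNNGC, the antioxidant response type element bound by Nfe2l1 and Nfe2l2, and in that of Psmd10 they mark CCAAT, the box bound by the NF-Y factor, again on either strand.
Psmb5, chr15:32047330-32047629, minus strand: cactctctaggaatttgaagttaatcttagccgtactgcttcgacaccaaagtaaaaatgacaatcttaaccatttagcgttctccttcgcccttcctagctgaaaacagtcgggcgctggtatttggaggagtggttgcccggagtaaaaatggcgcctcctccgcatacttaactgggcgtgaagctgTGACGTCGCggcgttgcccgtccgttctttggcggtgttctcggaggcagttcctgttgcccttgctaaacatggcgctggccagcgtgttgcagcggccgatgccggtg
Psmd10, chrX:109453556-109453855, minus strand: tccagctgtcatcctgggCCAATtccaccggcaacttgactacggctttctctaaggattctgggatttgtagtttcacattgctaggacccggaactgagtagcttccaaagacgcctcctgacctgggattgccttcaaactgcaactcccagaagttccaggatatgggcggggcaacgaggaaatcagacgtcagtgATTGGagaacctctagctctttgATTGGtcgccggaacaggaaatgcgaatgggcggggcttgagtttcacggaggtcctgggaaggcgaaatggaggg

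Windows were found for 40 of the 42 members and for 27457 genes in all. The interferon type motif was in 7 members (17.5%) and in 3.77% of all promoters, TGACNNNGC was in 7 members (17.5%) and in 12.2% of all, and CCAAT was in 21 members (52.5%) and in 37.7%. Beside Psme2, Psmb8 and Psmb10, the interferon type motif was in Psma4, Psmb3, Psmd7 and Psmg4. Their log2 ratios with phenylephrine were 0.12, 0.19, 0.16 and -0.32. Beside Psmb5, TGACNNNGC was in Psma3, Psmb2, Psmd1, Psmd3, Psmd9 and Psme4. These had 0.11, -0.28, -0.205, 0.13, 0.09 and 0.11 with phenylephrine, so neither motif was confined to the members that differed most. The only overlap between motifs in a member was 1 base shared by CCAAT and TGACNNNGC in Psmb2. A match describes the letters of the window and does not show that a factor binds there. In the gene order of the same annotation Psme1 and Psme2 lie on either side of Emc9, and Psmb8 and Psmb9 on either side of the peptide transporter gene Tap1.

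The α ring subunits of the core were measured for Psma1 to Psma7, and none was past 1.5-fold in any comparison. With phenylephrine their log2 ratios ran from -0.02 for Psma6 to 0.22 for Psma5, with a median of 0.12. With PAMH they ran from -0.04 for Psma6 to 0.22 for Psma7, with a median of 0.11. Psma6 had scaled signals of 2638 on the unstimulated array, 2595 with phenylephrine and 2571 with PAMH, so its 3 values lay within a few percent of each other, though quantile normalization put it at log2 ratios of -0.32 and -0.39. The spread among the α subunits was small, with an SD of 0.08 with phenylephrine and 0.09 with PAMH, beside 0.43 and 0.41 over all measured genes. The sign of the ring's median was not settled, because it turned to -0.13 with phenylephrine and -0.16 with PAMH after quantile normalization.

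The β ring holds the proteolytic sites, and its 6 measured constitutive subunits varied more. Psmb5, the chymotrypsin-like subunit, had scaled signals of 1985 on the unstimulated array, 2831 with phenylephrine and 2317 with PAMH. It was the highest of all members with phenylephrine, at 1.43-fold (log2 ratio 0.51), and had 0.22 with PAMH. Its phenylephrine ratio stayed above 0 under all 10 alternatives it had a value for, down to 0.23 after quantile normalization, but its PAMH ratio turned to -0.11 there. For a bright gene with 1 probe set, alternatives of the floor and the probe set rule return the main ratio. Only those of the scaling and the offset could differ. Psmb7, the trypsin-like subunit, had 1450, 1744 and 1884 in the same order of arrays, with log2 ratios of 0.27 and 0.38. It was lowest on the unstimulated array, and its ratios fell to 0.02 and 0.07 after quantile normalization.

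Psmb2, a non-catalytic β subunit, was the lowest core gene with phenylephrine. Its signals were 1320, 1088 and 1386 for the unstimulated, phenylephrine and PAMH arrays, which gave log2 ratios of -0.28 and 0.07. The phenylephrine array was thus the low one, also after quantile normalization (-0.52). Psmb1, another structural β subunit, had 1849, 2278 and 2321, with log2 ratios of 0.30 and 0.33 that became 0.02 and -0.01 after quantile normalization. Psmb3 had log2 ratios of 0.19 with phenylephrine and 0.12 with PAMH, and Psmb4 had 0.08 and 0.07. The β ring median was 0.23 with phenylephrine and 0.17 with PAMH, and turned to -0.01 and -0.14 after quantile normalization.

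The immunoproteasome genes gave low signals. Psmb8, the inducible counterpart of Psmb5, had scaled signals of 56.1, 55.7 and 63.7 on the unstimulated, phenylephrine and PAMH arrays, and Psmb9, the counterpart of Psmb6, had 34.9, 36.3 and 8.4. Both lay below the floor on every array, so no ratio was formed. Psmb10, the counterpart of Psmb7, had scaled signals of 72.7, 139.9 and 125.1. It was below the floor without stimulus and above it with either compound, at 1.84 times the floor with phenylephrine and 1.64 times with PAMH. Since the unstimulated signal was not above the floor, no ratio to it was formed. With the floor lowered to percentile 25 the gene counted as more than 1.5-fold higher with both compounds, so that the choice of floor decides this call.

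The ATPases of the regulatory particle form the ring that unfolds substrates, and 5 were measured. Their log2 ratios ran from 0.02 for Psmc5 to 0.32 for Psmc1 with phenylephrine, and from 0.02 for Psmc2 to 0.21 for Psmc3 with PAMH. Psmc1 had scaled signals of 1189, 1482 and 1218 for the unstimulated, phenylephrine and PAMH arrays, and only the phenylephrine array was high. The medians of the ATPases were 0.15 with phenylephrine and 0.12 with PAMH, and both turned to -0.08 after quantile normalization. Psmc2 and Psmc4 had 0.13 and 0.22 with phenylephrine and 0.02 and 0.12 with PAMH. All 5 ratios were above 0 in both comparisons as scaled here, and none was past 1.5-fold.

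The other regulatory subunits form the base scaffold, the ubiquitin receptors and the lid, and 9 were measured. Psmd8, a lid subunit, had scaled signals of 865 unstimulated, 1214 with phenylephrine and 1325 with PAMH. It was 1.40-fold higher with phenylephrine (log2 ratio 0.49) and 1.53-fold higher with PAMH (0.61), the highest of the members with PAMH. Both treated arrays were above the unstimulated one under each of the 10 alternatives it had a value for, but the PAMH ratio was past 1.5-fold in only 6 of them. Alternatives of the floor and the probe set rule could not change the ratio of this gene. In every alternative that changed the scaling the PAMH ratio was below 1.5-fold, with 0.46 as deposited and 0.39 after cyclic loess.

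Psmd11, a lid subunit that promotes assembly of the holoenzyme, had signals of 1064, 1492 and 1298 for the unstimulated, phenylephrine and PAMH arrays. This was 1.40-fold higher with phenylephrine (0.49) and a log2 ratio of 0.29 with PAMH. Its second probe set had 0.39 and 0.42, so the probe sets both placed the gene above its unstimulated level and differed in which compound was higher. After quantile normalization the brighter one had 0.26 and 0.04.

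Psmd4, the ubiquitin receptor of the particle, had signals of 821, 968 and 1085, with log2 ratios of 0.24 with phenylephrine and 0.40 with PAMH. Psmd1, the large base scaffold, was the only subunit of this group below its unstimulated level with phenylephrine (286 unstimulated, 248 with phenylephrine and 279.9 with PAMH, or -0.20 and -0.03 on the log2 scale). Psmd2, the other scaffold, had 0.12 and 0.22. The lid subunits Psmd3, Psmd6, Psmd7 and Psmd13 ran from 0.11 to 0.24 with phenylephrine and from 0.03 to 0.20 with PAMH. The median of the 9 subunits was 0.16 with phenylephrine and 0.20 with PAMH, and the second turned to -0.05 after quantile normalization.

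**Figure D2:**
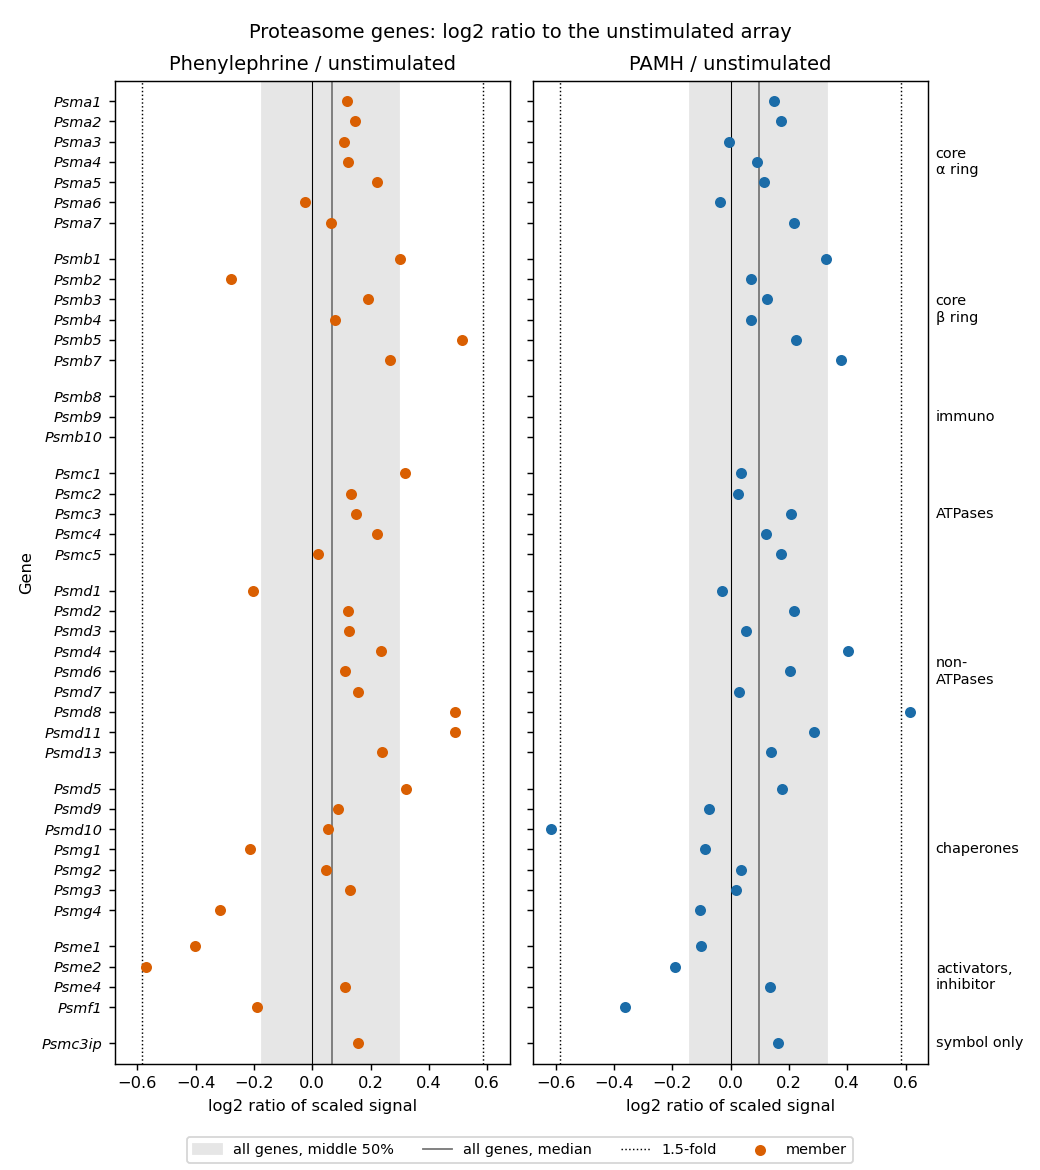
Log2 ratio of the scaled signal to the unstimulated array for each gene above the floor on both arrays, with phenylephrine on the left and PAMH on the right. The grey band and line give the middle 50% and the median of all measured genes, and dotted lines mark 1.5-fold. Most genes fall inside the band. Psme1, Psme2, Psmg4 and Psmb2 lie furthest left of it with phenylephrine, Psmb5, Psmd8 and Psmd11 furthest right, and Psmd10 and Psmd8 lie past the dotted lines with PAMH.

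Psmd10 binds the ATPase Psmc4 during assembly of the base and is also known as an oncoprotein that acts on p53 and the retinoblastoma protein. Its scaled signals were 389 unstimulated, 404 with phenylephrine and 254 with PAMH. The unstimulated and phenylephrine arrays were close together (log2 ratio 0.05) and the PAMH array was low, at -0.61 against the unstimulated and -0.67 against the phenylephrine array. Under the 10 alternatives the PAMH ratio to the unstimulated array ran from -0.77 on the intensities as deposited to -0.53 with an offset of 50, and in 9 of them it was past 1.5-fold. Alternatives of the floor and the probe set rule could not change this ratio. Those of the scaling kept it past 1.5-fold, with -0.69 after quantile normalization and -0.70 after cyclic loess. The gene had 1 probe set, so no second one bears on it.

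The other chaperones of the base were Psmd5, with log2 ratios of 0.32 and 0.18 with phenylephrine and PAMH, and Psmd9, with 0.09 and -0.07. The chaperones of the core work in pairs, Psmg1 with Psmg2 and Psmg3 with Psmg4. Psmg4 had signals of 524 unstimulated, 421 with phenylephrine and 487 with PAMH, and Psmg1 had 505, 435 and 475. Both were lowest on the phenylephrine array, with log2 ratios of -0.32 and -0.22, while their partners Psmg3 (0.13) and Psmg2 (0.05) were not below the unstimulated array as scaled here. With PAMH Psmg4 had -0.10, Psmg1 -0.09, Psmg2 0.03 and Psmg3 0.02.

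The activator ring of Psme1 and Psme2 opens the core without the use of ubiquitin or ATP. Psme1 had scaled signals of 2218 unstimulated, 1676 with phenylephrine and 2064 with PAMH. Psme2 had 610 unstimulated, 412 with phenylephrine and 535 with PAMH. Each gene had the same order, highest without stimulus and lowest with phenylephrine. The log2 ratios with phenylephrine were -0.40 for Psme1 and -0.57 for Psme2, and those with PAMH were -0.10 and -0.19.

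All of these ratios of the activator pair stayed below 0 under the alternatives tried, of which only those of the scaling could change the sign. With phenylephrine Psme1 ran from -0.70 after quantile normalization to -0.39 with an offset of 50, and was past 1.5-fold in 2 of 10 alternatives, while Psme2 ran from -0.70 on the intensities as deposited to -0.52 with the offset and was past it in 4. PAMH against phenylephrine gave log2 ratios of 0.30 and 0.38, and the doses of the compounds differed. As a technical yardstick, probe sets of the same gene differed with an SD of 0.26 in the phenylephrine ratio over 864 genes, 0.28 in the PAMH ratio over 867 genes and 0.23 in the ratio of PAMH to phenylephrine over 866 genes. That spread holds no variation between cultures.

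Markers of other cells also differed between the arrays. The scaled signals of the 12 fibroblast and matrix markers summed to 15058 unstimulated, 13084 with phenylephrine and 11017 with PAMH. Of the 10 with ratios, 8 were below 0 with phenylephrine and 9 with PAMH. Thy1 was above 0 with both (0.525 and 0.214), and Vim had 0.02 with phenylephrine. The scaled signals of 11 macrophage and antigen-presenting cell markers summed to 585, 568 and 633. Of these, Cd68, Ptprc, Lyz2, C1qa, C1qb, Cd14, RT1-Da and RT1-Ba lay below the floor on all arrays. Cd74, the invariant chain of antigen-presenting cells, had log2 ratios of -0.59 with phenylephrine and -0.52 with PAMH, from signals of 121.0, 80.1 and 84.6 near the floor. Aif1, the other marker of that list above the floor on all arrays, went the other way, with 91.3, 103.3 and 134.7 (log2 ratios 0.18 and 0.56). Csf1r had 72.6, 79.3 and 109.7, the first of them under the floor. Their part in the ratios of Psme1 and Psme2 was not tested, and in bulk RNA fewer cells of a type and less RNA per cell cannot be told apart.

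Psme4, a large single-chain activator that acts on acetylated histones, had log2 ratios of 0.11 with phenylephrine and 0.14 with PAMH by its brightest probe set (921, 996 and 1012). Its other probe sets had -0.19 and -0.21 with phenylephrine and 0.06 and 0.21 with PAMH, so the sign with phenylephrine depended on the probe set. Psmf1, an inhibitor of the core, had signals of 284.5 unstimulated, 249.3 with phenylephrine and 221.3 with PAMH. Both treated arrays were lower, with log2 ratios of -0.19 and -0.36, and these ran to -0.32 and -0.52 on the intensities as deposited. Psmc3ip, which is no proteasome gene, had 0.16 in both comparisons.

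Over all measured members the median log2 ratio was 0.12 with phenylephrine and 0.11 with PAMH, beside 0.07 and 0.10 over all measured genes. The scaling set these levels in part: after quantile normalization the medians of all genes were -0.02 and -0.003 and those of the members -0.04 and -0.08, so the members went from slightly above to slightly below the genes in general. The members were closer together than genes in general, with an SD of 0.23 and 0.21 beside 0.43 and 0.41. With phenylephrine 71.8% of members lay within a log2 ratio of 0.25 of the unstimulated array, against 52.2% of all genes, and with PAMH 82.1% against 50.3%. These shares describe the arrays and carry no test.

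Ratios depended on signal, and most members were bright. When all measured genes were divided into 5 classes of 1344 by mean signal, 25 members fell into the brightest, 9 into the next and 5 into the middle one. In the brightest class the median over all genes was 0.20 for phenylephrine and 0.26 for PAMH on the log2 scale, while that over its 25 members was 0.15 for each. In the next class all genes had 0.09 and 0.12 and the 9 members 0.05 and -0.01, and in the middle one 0.02 and 0.07 against 0.09 and -0.03. In both upper classes the member medians were therefore below those of equally bright genes.

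**Figure D3:**
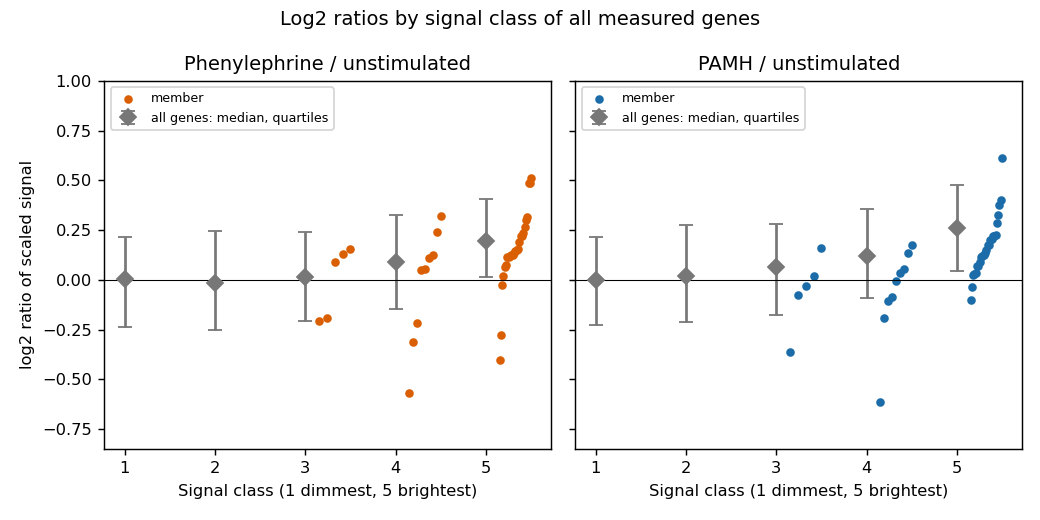
Log2 ratio of the scaled signal against the class of mean signal, from 1 (dimmest) to 5 (brightest). Grey diamonds and bars give the median and quartiles of all genes in a class, and coloured points the proteasome genes, ordered within a class by their ratio. The class medians of all genes reach 0.20 for phenylephrine and 0.26 for PAMH in class 5, where the 25 proteasome genes have a median of 0.15 in each panel.

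PAMH against phenylephrine gave a median log2 ratio of -0.01 over 40 members, beside 0.04 over 6593 genes. Of the members 0 were at least 1.5-fold higher, where 1.93% of all genes were, and 1 was at least 1.5-fold lower, where 2.67% were. That 1 was Psmd10, whose signal with PAMH was 1.59-fold below that with phenylephrine. After it the lowest ratios were those of Psmb5 (-0.29), Psmc1 (-0.28), Psmd11 (-0.20) and Psmf1 (-0.17). The highest were those of Psme2 (0.38), Psmb2 (0.35), Psme1 (0.30), Psmg4 (0.21) and Psmd1 (0.17), and all of the latter had been below their unstimulated level with phenylephrine. Psmb10, which was measured on both treated arrays, had -0.16. The comparisons share arrays, so these ratios are not independent of those to the unstimulated array, and 20 µM phenylephrine and 1 µM PAMH were not matched in dose.

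**Figure D4:**
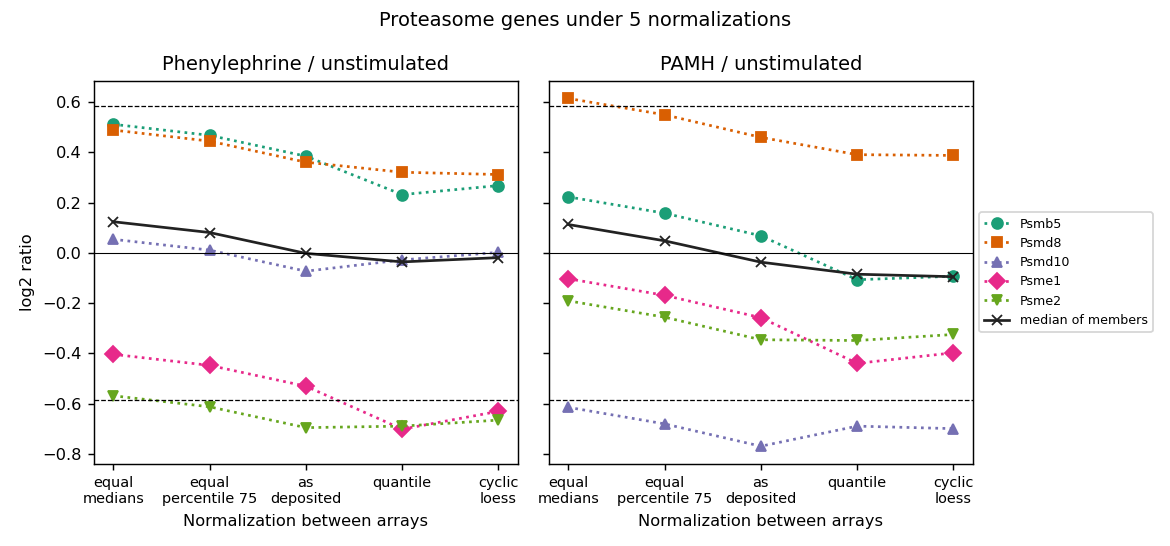
Log2 ratio to the unstimulated array of 5 genes and the median of all measured proteasome genes under 5 normalizations between arrays, with dashed lines at 1.5-fold. The median crosses 0, from 0.12 to -0.04 with phenylephrine and from 0.11 to -0.10 with PAMH, while Psme1 and Psme2 stay below 0 in both panels and Psmd10 stays past 1.5-fold with PAMH.

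The rest of the pathway was examined in lists of ubiquitin-system genes. The proteasome-bound factors outside the symbol pattern, which include the assembly factor Pomp, the receptor Adrm1 and the shuttle Rad23b, had 10 measured genes, and 0 were past 1.5-fold with either compound. Over all genes 8.90% were that much higher and 4.54% lower with phenylephrine, and 9.31% and 4.17% with PAMH. The median log2 ratios of these factors were 0.09 and 0.17. With phenylephrine Rad23b was furthest from 0 (0.31), followed by Adrm1 (0.30) and Pomp (0.25), and Sem1, a small lid subunit, was lowest (-0.25). With PAMH Pomp was furthest (0.29) and turned to -0.06 after quantile normalization.

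Of 8 measured genes that control proteasome gene transcription, 1 was at least 1.5-fold higher with each compound and 0 lower. Over all genes 8.90% were that much higher and 4.54% lower with phenylephrine, and 9.31% and 4.17% with PAMH. A single gene of 8 thus does not set the list apart. The gene was Mafk, a small Maf protein that pairs with Nfe2l1 and Nfe2l2 on DNA, with scaled signals of 379 unstimulated, 864 with phenylephrine and 667 with PAMH. Both treated arrays were high, with log2 ratios of 1.19 and 0.82. Nfe2l1, the main activator of proteasome genes when proteolysis is blocked, had 268, 322 and 323, or 0.27 with each compound, and Nfe2l2 had 0.01 and -0.14.

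Among 19 measured ubiquitin-activating and conjugating enzymes, phenylephrine put 2 at or past 1.5-fold above the unstimulated level and PAMH put 4 there, and 0 were as far below with either. Over all genes 8.90% and 9.31% were that far above and 4.54% and 4.17% that far below, so the share with phenylephrine was near that of genes in general. Ube2c, which serves the anaphase-promoting complex, was highest with phenylephrine (0.81) and with PAMH (0.88), and Ube2s, its partner there, had 0.60 and 0.65. With PAMH the activating enzyme Uba1 (0.86) and the conjugating enzyme Ube2g1 (0.59) were also past 1.5-fold, the latter not after quantile normalization (0.39). Ube2s was below 1.5-fold after quantile normalization with both compounds (0.45 and 0.47). Ube2d1 was lowest with phenylephrine (-0.49) and Ube2v2 with PAMH (-0.23).

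Of 9 measured muscle ubiquitin ligases and partners, 0 were at least 1.5-fold higher and 2 lower with phenylephrine, where 8.90% and 4.54% of all genes were. These were Trim63, the sarcomere ligase MuRF1 (693 unstimulated, 442 with phenylephrine and 647 with PAMH; log2 ratio -0.65 with phenylephrine), and Cblb (-0.64). With PAMH, where 9.31% of all genes were higher and 4.17% lower, 1 was higher, the chaperone-linked ligase gene Stub1 (0.70), which was 0.53 after quantile normalization, and 1 lower, the titin-associated ligase gene Trim54 (-0.65). Trim63 was low only on the phenylephrine array and Trim54 only on the PAMH array. Fbxo32, the atrophy ligase atrogin, lay below the floor on all arrays.

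Of 8 free deubiquitinases and 7 genes of the Vcp segregase, which extracts ubiquitinated proteins from complexes, 0 were past 1.5-fold with either compound. Over all genes 8.90% were that much higher and 4.54% lower with phenylephrine, and 9.31% and 4.17% with PAMH. Uchl1 was furthest from 0 among the deubiquitinases with phenylephrine (0.53) and Usp5 with PAMH (0.41), and among the segregase genes Ufd1 with phenylephrine (-0.26) and Ubxn1 with PAMH (0.20). Of 9 measured genes of interferon signalling and antigen processing, 0 were higher with either compound, 1 was lower with phenylephrine and 0 with PAMH. Lists this small cannot be set apart from the shares over all genes. The lower gene was Erap1, the peptidase that trims antigenic peptides, with signals of 279, 172 and 202 and log2 ratios of -0.70 with phenylephrine and -0.47 with PAMH. The list was mixed in direction. With phenylephrine 4 of the 9 were above 0, namely Ifngr2 (0.32), Jak2 (0.21), Stat2 (0.21) and Tapbp (0.08), and 5 below, among them Irf7 (-0.50) and B2m, the light chain of class I molecules (-0.19). With PAMH 3 were above 0 and 6 below, and the median log2 ratios of the list were -0.05 and -0.09. Tap1 and Tap2, the neighbours of Psmb8 and Psmb9, lay below the floor on all arrays, as did Mx1, Mx2, Gbp2 and Usp18, which interferon induces.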

How the data were processed

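Each probe set had 1 linear intensity on every array, as deposited by the authors. Which software, scaling and probe summary produced it is not given in the sources used here, and detection calls were not used. Of 15866 non-control probe sets 12783 carried 1 gene symbol in the platform annotation, 312 several and 2771 none. Symbols were updated by gene identifier in the RefSeq table of GRCr8, which held all 42 members.

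Each array was multiplied by 1 factor (0.938 unstimulated, 1.02 phenylephrine, 1.04 PAMH) to equal medians over non-control probe sets. Without it the medians differed from the unstimulated array by log2 -0.13 and -0.15. The brightest probe set stood for a gene. Ratios needed both arrays at or above percentile 40 (76.1). The number of arrays, 1 per group, limits the precision, and no test was possible. The ratio code was tested on simulated data.

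Members and gene lists were chosen with earlier results of these data known. Named were the 5 highest and 5 lowest members per comparison, any past 1.5-fold, the catalytic, inducible, activator, inhibitor and Psmg genes, members with several probe sets or below the floor, and the extreme gene of each pathway list. The 4 ubiquitin genes on one list had no probe set with 1 symbol and gave no values. Motif windows used the RefSeq promoter table. Pairwise identity of catalytic subunit proteins was not analysed here.

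Python 3.11.15, pandas 2.3.3, numpy 2.4.6, matplotlib 3.10.9 and limma 3.58.1 in R 4.3.3 (quantile and cyclic loess) were used. Alternatives changed the scaling, the floor (percentile 25, percentile 50, none), an offset of 50, the probe set rule and Psmc3ip.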

Additional observations from a re-analysis of the deposited data

How the results depend on the processing

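No paired analysis was possible because each group had 1 array. The median ratio of the members to the unstimulated array had no settled sign. With phenylephrine it was -0.002 on the intensities as deposited, -0.036 after quantile normalization and -0.019 after cyclic loess, and with PAMH -0.037, -0.085 and -0.095. In the other alternatives these medians, and in all of them that of PAMH over phenylephrine, moved by less than 0.1. Few members were near 1.5-fold, so counts changed. With phenylephrine 1 member, Psmb10, was higher as deposited, with the floor at percentile 25 and with no floor. In that comparison 1 was lower as deposited and with scaling on percentile 75, and 2 after quantile normalization and after cyclic loess. With PAMH 0 were higher with scaling on percentile 75, after quantile normalization and after cyclic loess. There were 2 with the floor at percentile 25 and with no floor. As deposited the count stayed at 1, but the member was Psmb10 (0.63) and no longer Psmd8 (0.46). With PAMH 2 were lower with no floor, also against phenylephrine, and 0 in both with an offset of 50. Of the log2 ratios of single members 20 of 39 kept their sign in every alternative with phenylephrine, 16 of 39 with PAMH and 34 of 40 for PAMH over phenylephrine. No member past 1.5-fold changed sign. For a member with 1 probe set well above the floor, alternatives of the floor and the probe set rule return the main ratio, and an offset cannot change a sign. Only the alternatives of the scaling could turn such a member. Over all genes, 66.3% of those past 1.5-fold were higher with phenylephrine and 69.1% with PAMH, and 43.3% and 40.5% as deposited, 55.1% and 52.9% after quantile normalization and 58.2% with PAMH scaled on percentile 75 (53.2% after cyclic loess). The number of arrays limits all ratios, and signals near 76.1 limit Psmb10.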
